A study of Mus musculus with 12 samples.

Results

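Liver sinusoidal endothelial cells line the capillaries of the liver and carry a set of surface receptors that is used to recognise them. Their marker genes are described here as a group of 10 genes, chosen by name as known markers of these cells and matched by gene symbol in the deposited expression table: *Stab1*, *Stab2*, *Lyve1*, *Clec4g*, *Kdr*, *Pecam1*, *Fcgr2b*, *Oit3*, *Gata4* and *Eng*. The table held 24532 genes, and all 10 were among the 14038 that were kept by a filter on low counts and tested. The rule that chose them used names and no expression value, with earlier results of these data known.

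RNA-seq was run on whole liver of 12 male C57BL/6 mice, in 4 groups of 3. WT mice were *Ahr* fl/fl littermates without Cre, and mice labelled *Ahr* HKO (ALKO in the group names) were *Ahr* fl/fl with Alb-Cre, which deletes the floxed second exon of the aryl hydrocarbon receptor gene in hepatocytes. Mice were 10 to 12 weeks old at the start and took for 5 weeks either a Lieber-DeCarli liquid diet with ethanol at 5% by volume, or 36% of calories (EtOH), or an isocaloric control liquid diet (con). The groups are WT-con, WT-EtOH, ALKO-con and ALKO-EtOH, every mouse carries the floxed allele, and endothelial cells are not the cells in which Alb-Cre acts. Each liver is a separate mouse, and nothing in the labels ties a liver of one group to a liver of another.

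Sinusoidal endothelial cells have open fenestrae and no organised basement membrane, so plasma reaches the hepatocytes directly. They clear modified proteins, hyaluronan and immune complexes from blood by endocytosis, through stabilins, C-type lectins and an inhibitory Fc receptor. Their specialised state depends on VEGF signalling and on the transcription factor GATA4, and its loss, known as capillarisation, accompanies liver disease, alcohol-related disease included. The markers are not equally specific: *Pecam1*, *Kdr* and *Eng* are used by endothelium in general, *Stab1*, *Lyve1* and *Fcgr2b* are also found in macrophages, and *Gata4* is also found in stellate cells.

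The libraries held between 46306500 and 74336300 reads on genes (6 digits kept). Values per liver are given as CPM, a gene's reads divided by its library size and put on one scale by TMM factors over the 12 libraries. The targeted gene did not separate the genotypes in the direction of the label: *Ahr* was at 20.1, 16.6 and 18.3 CPM in WT-con and at 65.5, 41.3 and 63.3 CPM in ALKO-con (log2 FC 1.63, adjusted p = 0.00164), and a count over the whole gene does not separate the deleted exon. *Cyp1a2*, a target of the receptor, was lower in the libraries labelled *Ahr* HKO, on con (log2 FC -1.67, adjusted p = 0.0197) and on EtOH (log2 FC -0.73, adjusted p = 0.0433). Genotype directions below therefore refer to the libraries as labelled. All 10 markers were detected in every liver.

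WT-EtOH liver 2 stood apart from the rest. It was the highest liver of its group for 10 of 10 markers and the highest of all 12 livers for 7 of them, at a median of 2.02 times the mean of the other WT-EtOH livers (range 1.25 to 2.36). Over all tested genes the same ratio had a median of 0.965. Summed over the 10 markers it held 650.5 CPM, beside 317 and 356 CPM in WT-EtOH livers 1 and 3. Macrophage and other endothelial markers were also high there: 13 of 13 Kupffer cell markers (median 2.29 times), 25 of 25 other sinusoidal endothelial genes (median 1.63 times) and 23 of 25 pan-endothelial genes (median 1.73 times) exceeded the mean of the other WT-EtOH livers, while 7 of 14 stellate cell markers (median 0.997 times), 3 of 6 cholangiocyte markers (median 1.04 times) and 2 of 11 hepatocyte markers (median 0.779 times) did. Lists of blood cells were above that mean as well, with 7 of 7 neutrophil and monocyte markers (median 2.23 times). So were 6 of 7 erythroid and platelet markers (median 1.64 times) and 7 of 10 lymphocyte markers (median 1.2 times). The list of Fc receptors and C-type lectins had 18 of 18 above it (median 2.07 times). Comparisons that use this liver are given with and without it. In whole tissue, fewer endothelial cells and less RNA of these genes per cell cannot be told apart.

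Levels of different genes were compared on the deposited FPKM scale, which divides by gene length. *Clec4g*, a C-type lectin (LSECtin) that binds glycans on pathogens and T cells, had the highest level, with a mean of 54.1 FPKM over the 12 livers, above 92% of tested genes. *Fcgr2b*, the inhibitory Fc gamma receptor that takes up small immune complexes, followed at 22.8 FPKM, and *Eng*, the TGF-β and BMP co-receptor endoglin, at 21.0 FPKM. *Oit3* had a mean of 11.9, *Stab1* 9.28, *Pecam1* 7.48, *Stab2* 7.29, *Kdr* 6.92, *Gata4* 4.26 and *Lyve1* 3.58 FPKM. *Clec4g* exceeded *Fcgr2b*, *Eng* exceeded *Oit3* and *Kdr* exceeded *Gata4* in 12 of 12 livers. The order of *Pecam1* and *Stab2* held in 7 of 12 livers, that of *Stab2* and *Kdr* in 8, that of *Gata4* and *Lyve1* in 8 and that of *Fcgr2b* and *Eng* in 9. The order depended on the group: *Pecam1* exceeded *Stab2* in 0 of 3 WT-con livers and in 3 of 3 ALKO-EtOH livers, and *Stab2* exceeded *Kdr* in 3 of 3 WT-con livers and in 0 of 3 ALKO-EtOH livers. *Gata4* exceeded *Lyve1* in 3 of 3 WT-con livers and in 1 of 3 ALKO-con livers. Within WT-con, levels were 50.6 ± 4.33 FPKM for *Clec4g* and 2.18 ± 1.09 FPKM for *Lyve1* (SD, n = 3).

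RefSeq promoter sequences of build GRCm38.p6 (the table's assembly, of the mm10 build family named in the submitters' processing notes) were matched for 6 of the 10 markers. Windows of 250 bases before to 50 bases after the start were searched on both strands for the ETS words AGGAAG and also CGGAAG, of the class bound by endothelial ETS factors, for the GATA words AGATAA and also TGATAA and also AGATAG, and for the AhR core GCGTG. An ETS word was present in 4 of 6, a GATA word in 2 of 6 and the AhR core in 1 of 6. Over all 32851 promoters of that length the shares were 46.5%, 25.1% and 32.4%. The 250 bases before the start are shown for the stabilins, *Clec4g* and *Kdr*. The first 3 carry ETS words (for *Clec4g* also a GATA word) in capitals, and in *Clec4g* a pair of ETS words overlap. The last is the window with the AhR core, in capitals. All 4 read 5′ to 3′ on the minus strand.
*Stab1*, chr14:31168642-31168891: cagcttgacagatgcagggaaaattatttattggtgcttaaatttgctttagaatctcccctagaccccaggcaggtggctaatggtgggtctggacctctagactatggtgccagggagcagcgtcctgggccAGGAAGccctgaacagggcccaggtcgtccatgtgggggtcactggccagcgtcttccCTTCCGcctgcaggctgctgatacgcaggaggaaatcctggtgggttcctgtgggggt
*Stab2*, chr10:87007943-87008192: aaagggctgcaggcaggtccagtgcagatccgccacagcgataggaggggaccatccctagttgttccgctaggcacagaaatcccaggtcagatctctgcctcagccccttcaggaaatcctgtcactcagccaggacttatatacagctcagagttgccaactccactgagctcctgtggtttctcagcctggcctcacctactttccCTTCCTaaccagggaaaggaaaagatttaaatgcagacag
*Clec4g*, chr8:3720652-3720901: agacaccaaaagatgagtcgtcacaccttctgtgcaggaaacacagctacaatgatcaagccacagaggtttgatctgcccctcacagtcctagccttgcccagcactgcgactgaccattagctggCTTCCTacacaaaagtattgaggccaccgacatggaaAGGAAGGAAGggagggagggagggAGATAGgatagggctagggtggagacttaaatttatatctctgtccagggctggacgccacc
*Kdr*, chr5:75978456-75978705: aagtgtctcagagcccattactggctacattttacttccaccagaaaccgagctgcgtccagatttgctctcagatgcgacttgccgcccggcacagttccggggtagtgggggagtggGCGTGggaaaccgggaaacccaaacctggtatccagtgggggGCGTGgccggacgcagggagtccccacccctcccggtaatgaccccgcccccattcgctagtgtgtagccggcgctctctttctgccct
These matches describe letters in a window and show no binding. The *Kdr* window lies inside the interval that RefSeq gives for the whole gene, upstream of the transcript start used by the table. The windows of *Stab1*, *Stab2* and *Clec4g* lie partly inside theirs, which end at chr14:31168651, chr10:87008038 and chr8:3720695. The ETS word of *Stab2* is in the shared part.

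The clearest difference was between the diets in livers labelled *Ahr* HKO. There, 5 of the 10 markers were lower on EtOH than on con at an adjusted p under 0.05 (edgeR quasi-likelihood test, Benjamini-Hochberg over all 14038 tested genes), namely *Stab1*, *Stab2*, *Fcgr2b*, *Pecam1* and *Gata4*. Of all tested genes, 30.8% were called in either direction and 15.9% were called lower. All 10 log2 FC were negative, with a median of -0.63 beside -0.02 over all tested genes, and for 8 of 10 the ALKO-EtOH livers lay below every ALKO-con liver, beside 25.3% of all tested genes.

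**Figure D1:**
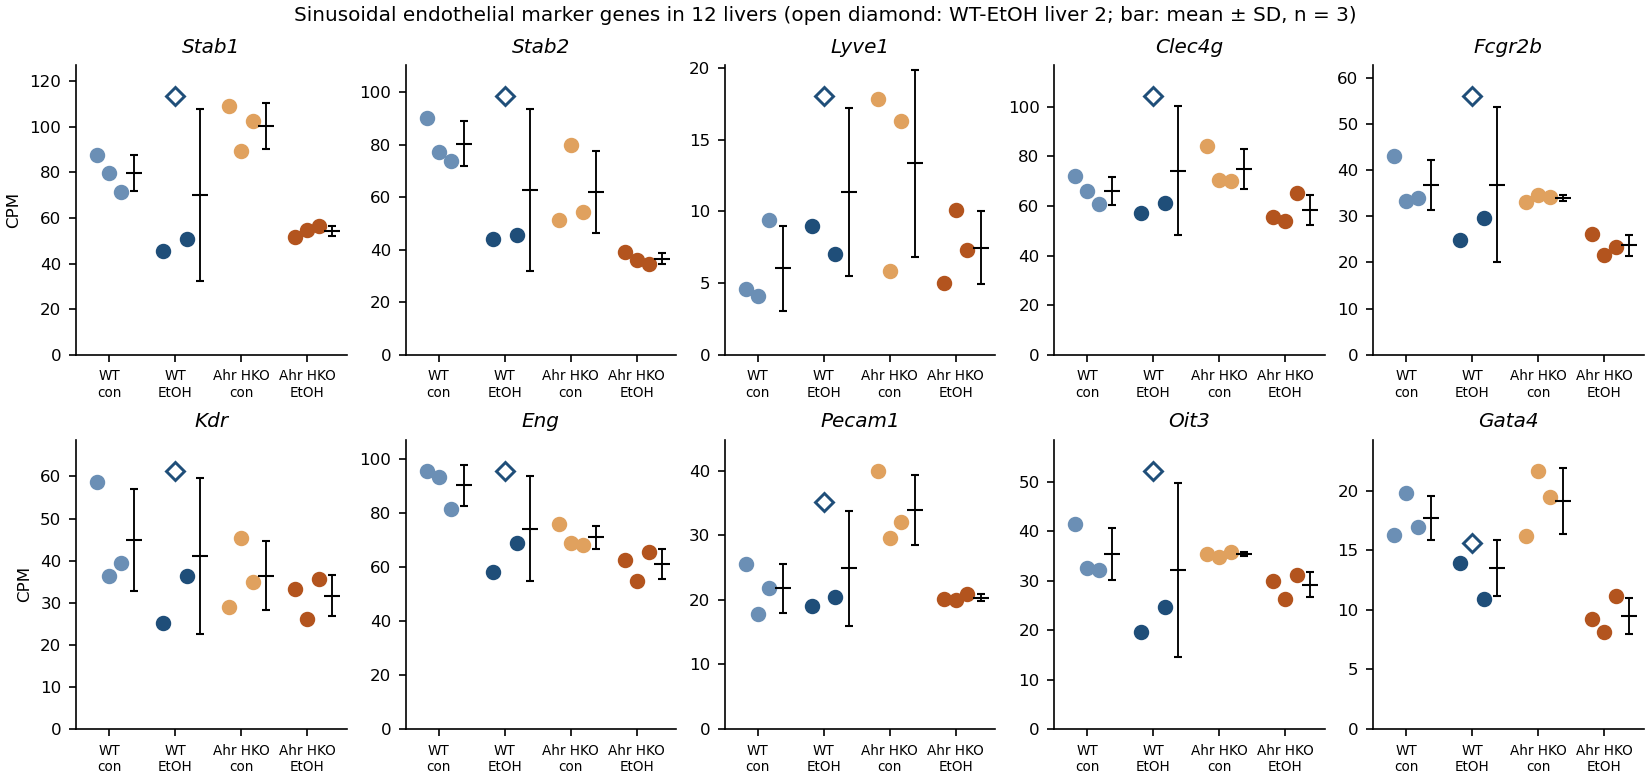
CPM of the 10 marker genes (y axis, linear from 0) in each of the 12 livers, by group (x axis); points are livers and black bars the mean ± SD of 3. WT-EtOH liver 2, the open diamond, is the highest of its group in all 10 panels, and for all but *Lyve1* and *Kdr* the 3 ALKO-EtOH livers lie below the 3 ALKO-con livers.

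The stabilins are the main scavenger receptors of the sinusoid. Positions below are RefSeq gene intervals of GRCm38.p6. *Stab1* (chr14:31139017-31168651) was at 109, 89.4 and 103 CPM in ALKO-con livers 1, 2 and 3 and at 51.7, 54.8 and 56.4 CPM in the ALKO-EtOH livers. It fell 1.85-fold (log2 FC -0.89, SE 0.12, adjusted p = 0.00325), and the groups were well separated, with the lowest con liver far above the highest EtOH liver. *Stab2* (chr10:86841194-87008038), the hyaluronan receptor for endocytosis, was at 51.4, 79.9 and 54.5 CPM in ALKO-con and at 39.0, 36.2 and 34.6 CPM in ALKO-EtOH (log2 FC -0.75, SE 0.17, adjusted p = 0.0162). Its ALKO-con livers were uneven, with liver 2 high. The call for *Stab2* was lost without ALKO-EtOH liver 2 (adjusted p = 0.0514), without ALKO-EtOH liver 3 (adjusted p = 0.0661) and in a single fit of all 12 libraries (adjusted p = 0.0519).

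Among the other endocytic receptors, *Fcgr2b* (chr1:170960558-170976071) was at 33.2, 34.6 and 34.1 CPM in ALKO-con and 26.2, 21.7 and 23.4 CPM in ALKO-EtOH, a 1.43-fold fall (log2 FC -0.51, SE 0.10, adjusted p = 0.00935). The con livers were nearly equal, and the EtOH livers all lay beneath them. In a single fit of all 12 libraries the difference did not pass (adjusted p = 0.117). *Clec4g* (chr8:3707066-3720695) was at 84.2, 70.4 and 69.9 CPM on con and 55.5, 54.0 and 65.2 CPM on EtOH, also without overlap, but did not pass (log2 FC -0.36, SE 0.13, adjusted p = 0.0663, 95% interval -0.66 to -0.07). It passed in 4 of 11 alternatives, DESeq2 (adjusted p = 0.0497) and the limma fits on log2 FPKM. *Lyve1* (chr7:110850607-110862953), a hyaluronan receptor shared with lymphatic endothelium, was at 17.8, 5.87 and 16.3 CPM on con and 5.02, 10.1 and 7.28 CPM on EtOH. ALKO-con liver 2 fell among the EtOH livers, the groups overlapped, and the interval was wide (-1.87 to 0.18, adjusted p = 0.177). Without ALKO-con liver 2 *Lyve1* passed the test (log2 FC -1.20, adjusted p = 0.0333).

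*Gata4* (chr14:63198914-63271712), the transcription factor that maintains sinusoidal identity, had the largest difference of the markers that passed. It was at 16.2, 21.7 and 19.5 CPM in ALKO-con and 9.21, 8.10 and 11.1 CPM in ALKO-EtOH, a 2.02-fold fall (log2 FC -1.01, SE 0.16, adjusted p = 0.00531), and the groups did not overlap. *Pecam1* (chr11:106654213-106715281), the junctional adhesion molecule CD31, was at 40.0, 29.6 and 32.1 CPM on con and 20.1, 19.9 and 20.9 CPM on EtOH, a 1.67-fold fall (log2 FC -0.74, SE 0.13, adjusted p = 0.00729). The ALKO-EtOH livers were within a narrow band for *Pecam1*, below all con livers. *Stab1*, *Pecam1*, *Fcgr2b* and *Gata4* each passed in 6 of 6 fits that left out 1 liver.

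The VEGF receptor and the TGF-β co-receptor differed less. *Kdr* (chr5:75932827-75979072), which encodes VEGFR2, was at 29.0, 45.3 and 34.8 CPM on con and 33.4, 26.1 and 35.6 CPM on EtOH. The groups overlapped (log2 FC -0.20, 95% interval -0.62 to 0.23, adjusted p = 0.439). *Eng* (chr2:32646595-32682669) was at 76.1, 69.0 and 68.1 CPM on con and 62.8, 54.9 and 65.5 CPM on EtOH, without overlap but with an interval that included 0 (-0.48 to 0.04, adjusted p = 0.167). *Oit3* (chr10:59422960-59441779), a secreted zona pellucida domain protein, was at 35.3, 34.9 and 35.7 CPM on con and 30.0, 26.3 and 31.2 CPM on EtOH. Its con livers were nearly equal and lay above all EtOH livers, and the difference missed the threshold (log2 FC -0.28, 95% interval -0.50 to -0.05, adjusted p = 0.0633), which it passed in 3 of 11 alternatives, the limma fits (adjusted p = 0.0498 at a pseudocount of 1). The interval of *Eng* did not overlap those of *Stab1* (-1.16 to -0.61) and *Gata4* (-1.38 to -0.64), and the difference between genes was not itself tested. The interval of *Stab1* overlaps that of *Nt5dc2*, and that of *Eng* overlaps *Fpgs* and *Mir1954*, all of which have rows of their own in the table. Whether the counting used strand is not given in the sources used here, and how reads in the shared stretches were split was not tested.

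**Figure D2:**
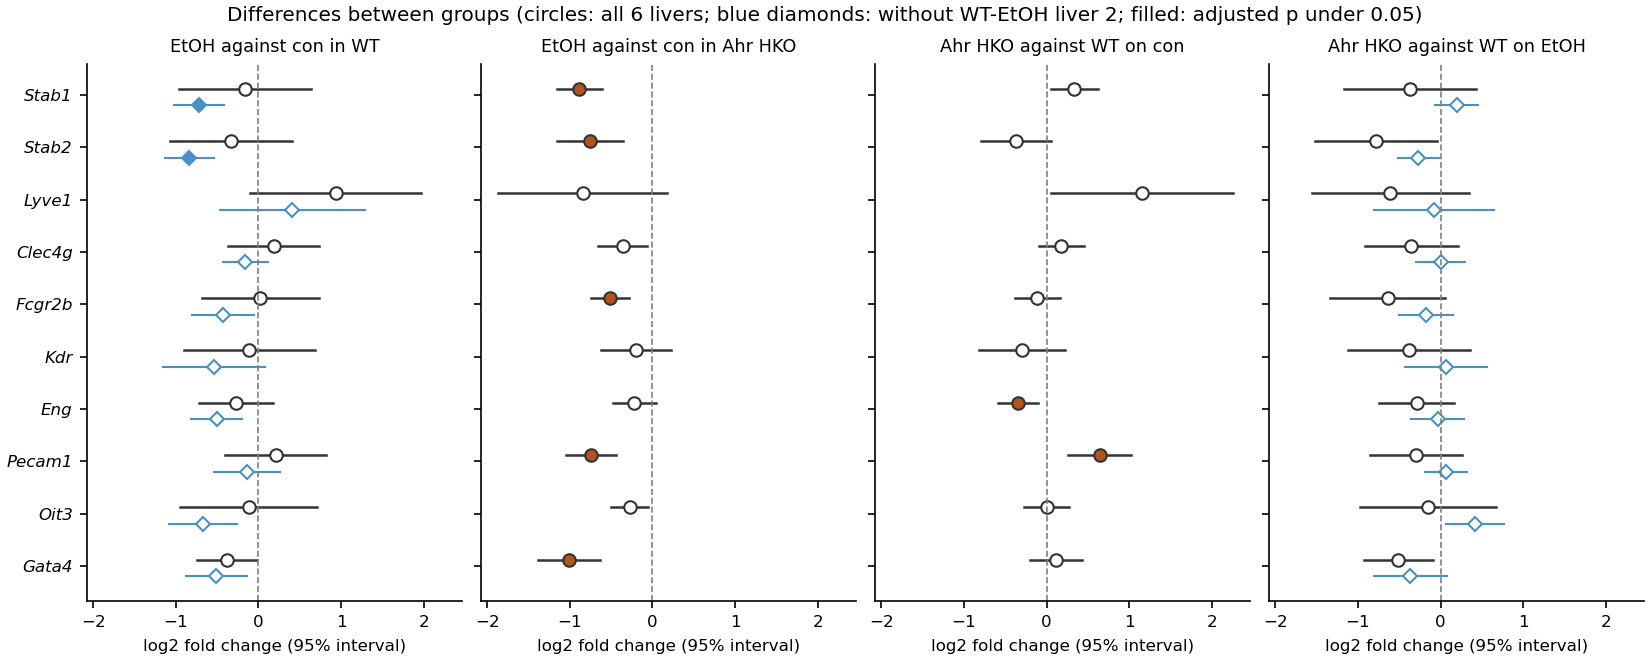
log2 fold change (x axis) with its 95% interval for each marker gene (y axis) in 4 comparisons; black circles use all 6 livers, blue diamonds leave out WT-EtOH liver 2, and filled symbols passed an adjusted p of 0.05. All 10 estimates lie below 0 for EtOH in livers labelled *Ahr* HKO (5 filled), and leaving out WT-EtOH liver 2 moves both comparisons that use it.

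In WT livers the question was whether EtOH alters the same genes when hepatocytes keep the receptor. None of the 10 markers passed the edgeR test there, beside 9.47% of all tested genes called in either direction. At an unadjusted p under 0.05 there was 1 (*Gata4*) beside 26.4% of all tested genes, and DESeq2 and limma on log2 FPKM each called 0. *Gata4* was at 16.3, 19.8 and 16.9 CPM in WT-con and 13.9, 15.6 and 11 CPM in WT-EtOH, the only marker without overlap between the groups (log2 FC -0.38, adjusted p = 0.177), beside 16.6% of all genes that lay lower without overlap. The log2 FC were negative for 6 markers and positive for 4, with a median of -0.11 beside 0.03 over all tested genes.

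The WT-EtOH livers were split. *Stab1* was at 87.6, 79.9 and 71.6 CPM in WT-con and 45.6, 113 and 50.9 CPM in WT-EtOH livers 1, 2 and 3 (95% interval of log2 FC -0.97 to 0.63). *Stab2* was at 90.1, 77.1 and 73.9 CPM and 44.1, 98.5 and 45.7 CPM, and *Oit3* at 41.5, 32.5 and 32.3 CPM and 19.6, 52.3 and 24.8 CPM. For these genes livers 1 and 3 lay below every con liver and liver 2 above every con liver. *Fcgr2b* was at 42.9, 33.2 and 34.0 CPM on con and 24.9, 56.0 and 29.6 CPM on EtOH, with the same split. *Eng* was at 95.9, 93.7 and 81.8 CPM on con and 58.3, 95.9 and 68.8 CPM on EtOH, and here liver 2 was level with the highest con liver. *Clec4g* was at 71.9, 65.9 and 60.7 CPM on con and 57.4, 104 and 61.1 CPM on EtOH. *Pecam1* was at 25.5, 17.9 and 21.9 CPM on con and 19.0, 35.1 and 20.4 CPM on EtOH. For both, livers 1 and 3 were near or within the con range. *Kdr* was at 58.8, 36.3 and 39.5 CPM on con and 25.2, 61.4 and 36.5 CPM on EtOH, with a high liver in each group. *Lyve1* had the largest positive estimate, at 4.56, 4.09 and 9.42 CPM on con and 8.97, 18 and 7.04 CPM on EtOH (log2 FC 0.94, SE 0.44, adjusted p = 0.230). Its groups overlapped, with WT-con liver 3 in the EtOH range. The coefficient of variation over the 10 markers had a median of 45.3% in WT-EtOH, 12.7% in WT-con, 12.6% in ALKO-con and 9.33% in ALKO-EtOH. In WT-EtOH it ranged from 17.4% to 54.6% with liver 2. Between livers 1 and 3 alone it ranged from 2.63% (*Stab2*) to 25.8% (*Kdr*).

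WT-EtOH liver 2 was set apart by the values of these same markers. Leaving it out therefore lowers their estimates by construction and is no independent test of them. In WT, the fits that left out any other single liver called 0 of the 10. Without WT-EtOH liver 2, 2 of the 10 markers were called lower on EtOH in WT, beside 2.48% of all tested genes called lower in that fit. These were the stabilins: *Stab1* fell 1.65-fold (log2 FC -0.72, SE 0.13, adjusted p = 0.0310) and *Stab2* 1.79-fold (log2 FC -0.84, SE 0.12, adjusted p = 0.0196). The log2 FC were then negative for 9 of 10, with a median of -0.51, and *Stab1*, *Stab2*, *Fcgr2b*, *Oit3*, *Gata4* and *Eng* lay below all WT-con livers in both remaining livers, beside 21.5% of all tested genes. *Oit3* (log2 FC -0.67, adjusted p = 0.0745) and *Eng* (log2 FC -0.51, adjusted p = 0.0765) missed the threshold, as did *Gata4* (log2 FC -0.51, adjusted p = 0.109). *Lyve1* stayed positive (log2 FC 0.41, adjusted p = 0.536).

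**Figure D3:**
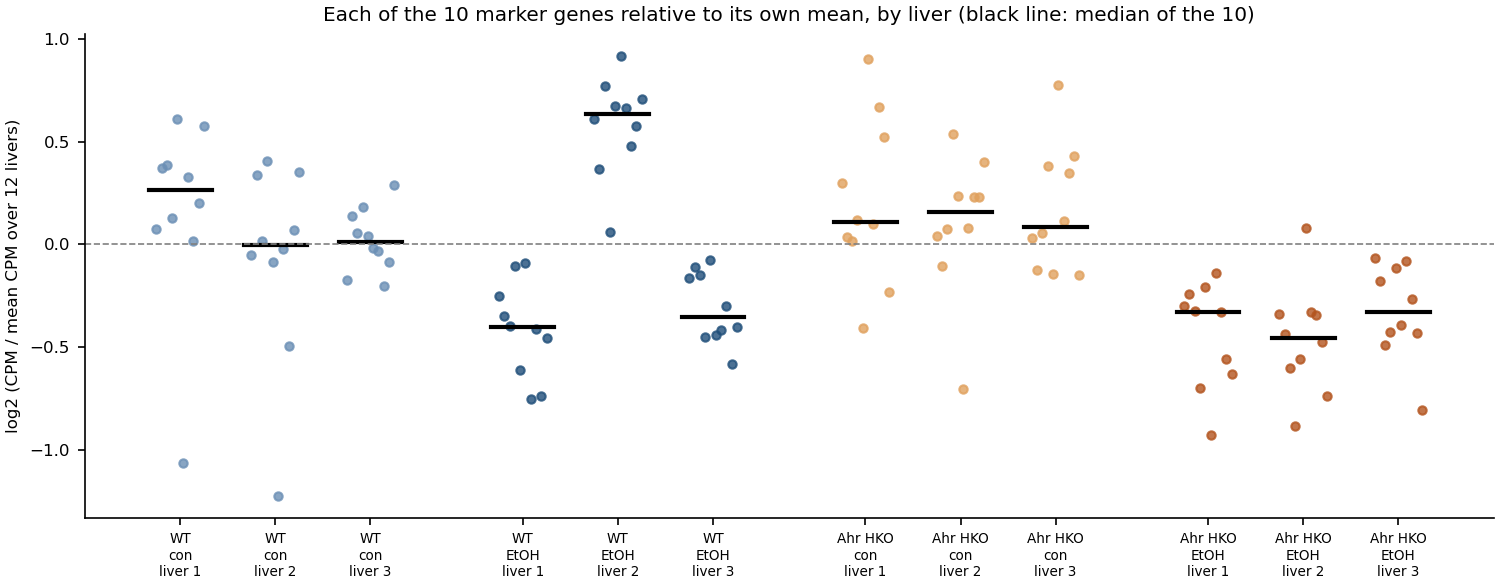
log2 ratio of CPM to the mean over the 12 livers (y axis) for the 10 marker genes in each liver (x axis); coloured points are genes and black lines the median of the 10. The medians are -0.33 to -0.45 in the ALKO-EtOH livers, -0.40 and -0.35 in WT-EtOH livers 1 and 3, and 0.64 in WT-EtOH liver 2.

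On the control diet, 2 of the 10 markers differed between the genotypes as labelled, 1 higher and 1 lower, beside 29.6% of all tested genes called in either direction, 15.4% higher and 14.2% lower. *Pecam1* was higher in ALKO-con, at the values above beside 25.5, 17.9 and 21.9 CPM in WT-con (log2 FC 0.64, SE 0.16, adjusted p = 0.0230). *Eng* was lower, at 71.1 ± 4.37 CPM in ALKO-con and 90.4 ± 7.58 CPM in WT-con (SD, n = 3, log2 FC -0.34, SE 0.10, adjusted p = 0.0424). *Stab1* was also without overlap, higher in ALKO-con, and did not pass (log2 FC 0.34, 95% interval 0.05 to 0.62, adjusted p = 0.0738). Thus 2 markers lay higher and 1 lower without overlap, beside 23.2% and 24.1% of all tested genes. *Lyve1* had the largest estimate and a wide interval (log2 FC 1.15, 95% interval 0.05 to 2.25, adjusted p = 0.106), while *Oit3* had the smallest, with means of 35.3 and 35.4 CPM. The other 5 markers lay between -0.37 (*Stab2*) and 0.18 (*Clec4g*), and the median of the 10 was 0.06.

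Both calls depended on single livers. That of *Pecam1* was lost without WT-con liver 2 (adjusted p = 0.0729), WT-con liver 3 (adjusted p = 0.0721) or ALKO-con liver 1 (adjusted p = 0.0601). That of *Eng* was lost without WT-con liver 1 (adjusted p = 0.129), WT-con liver 2 (adjusted p = 0.126), ALKO-con liver 1 (adjusted p = 0.0537), ALKO-con liver 2 (adjusted p = 0.0904) or ALKO-con liver 3 (adjusted p = 0.0864). Without ALKO-con liver 2, 4 markers passed: *Pecam1* and, in addition, *Lyve1* (log2 FC 1.51, adjusted p = 0.0274) and *Stab1* (log2 FC 0.42, adjusted p = 0.0450) higher and *Stab2* (log2 FC -0.60, adjusted p = 0.0179) lower. That liver had the lowest *Lyve1* and the highest *Stab2* of its group.

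On the EtOH diet none of the 10 markers differed between the genotypes by the edgeR test, beside 1.1% of all tested genes called, although all 10 log2 FC were negative (median -0.38, beside -0.01 over all tested genes). At an unadjusted p under 0.05 there were 2 beside 21% of all tested genes, and DESeq2 and limma each called 0. *Stab2* was the only marker without overlap, lower in ALKO-EtOH (log2 FC -0.78, 95% interval -1.52 to -0.05, adjusted p = 0.216), beside 14.2% of all tested genes. Without WT-EtOH liver 2, 5 of 10 were negative and the median was -0.02, and again none passed the edgeR test, beside 0.164% of all tested genes. At an unadjusted p under 0.05 there were 2 of 10 beside 16.1% of all tested genes, and the other tools were not run without this liver. In that fit *Stab1* was at log2 FC 0.19 (95% interval -0.06 to 0.45), *Pecam1* at 0.07 (-0.19 to 0.32) and *Clec4g* at 0.00 (-0.30 to 0.30).

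Whether the diet difference itself depended on genotype was tested by an interaction term over all 12 livers. It passed for 1 of 10 markers, *Pecam1* (log2 FC -0.93, SE 0.31, adjusted p = 0.0499), beside 22.3% of all tested genes. The diet log2 FC of *Pecam1* was 0.21 in WT, which did not pass, and it fell by 0.74 in livers labelled *Ahr* HKO. The call was lost without WT-EtOH liver 2 (log2 FC -0.58, adjusted p = 0.0895), and it held in 2 of 12 fits that left out a liver, those without WT-EtOH liver 1 (adjusted p = 0.0265) or liver 3 (adjusted p = 0.0391). In the other fits the adjusted p ran from 0.0501 (without WT-con liver 1) to 0.116 (without ALKO-con liver 1). For the other markers that fell on EtOH in livers labelled *Ahr* HKO, the difference between the genotypes was not shown: *Gata4* had an interaction of -0.62 (95% interval -1.13 to -0.11), *Stab1* of -0.70 (-1.55 to 0.15), *Fcgr2b* of -0.52 (-1.27 to 0.23) and *Stab2* of -0.40 (-1.26 to 0.45). *Lyve1* had the largest estimate (-1.75, 95% interval -3.26 to -0.25, adjusted p = 0.0879). It passed without WT-con liver 3 (adjusted p = 0.0493) or ALKO-con liver 2 (adjusted p = 0.0347), and *Gata4* passed without WT-EtOH liver 3 (adjusted p = 0.0342). Without WT-EtOH liver 2 the 9 of 10 negative estimates became 6 of 10.

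The markers moved together across livers to different degrees. The correlation of each with the mean of the other 9, on standardised log2 CPM over the 12 livers, was highest for *Fcgr2b* (r = 0.934) and *Stab1* (r = 0.914) and lowest for *Lyve1* (r = 0.252). The tested genes outside the group whose log2 CPM followed the mean of the 10 most closely were *F8* (r = 0.961), the coagulation factor made by sinusoidal endothelium, *Flt4* (r = 0.943), which encodes VEGFR3, *Siglec1* (r = 0.942), the macrophage sialoadhesin, *Arhgap45* (r = 0.938), *Sh3tc1* (r = 0.937), *Cdh5* (r = 0.937), the endothelial cadherin, *Icam2* (r = 0.937), *Ggta1* (r = 0.935), *Nectin4* (r = 0.930) and *Abcg1* (r = 0.929). These are descriptions over 12 points that share libraries and scaling, with WT-EtOH liver 2 at the high end.

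Other endothelial genes were read in the same fits. In livers labelled *Ahr* HKO on EtOH, 8 of 25 tested genes of a list of further sinusoidal genes passed, 7 lower and 1 higher, with a median of -0.10, and this share of 32% was near the 30.8% called over all tested genes. Among those lower were *Clec1b* (log2 FC -1.05, adjusted p = 0.00659), *Flt4* (log2 FC -0.78, adjusted p = 0.00579), *Plxnc1* (log2 FC -0.76, adjusted p = 0.00365) and *F8* (log2 FC -0.74, adjusted p = 0.00624). The gene that was higher, named after its value was seen, was *Hpgd*, a prostaglandin dehydrogenase (log2 FC 1.05, adjusted p = 0.0327), and this call was lost without ALKO-con liver 1 or 2 or ALKO-EtOH liver 1 or 2 (adjusted p of 0.0624 to 0.0933). Of 25 pan-endothelial genes 10 (40%) passed, each lower (median -0.28, beside 15.9% of all tested genes called lower), with *Cdh5* (log2 FC -0.81, adjusted p = 0.00311), *Nos3*, the endothelial nitric oxide synthase (log2 FC -1.40, adjusted p = 0.00332), and the tight junction gene *Tjp1* (log2 FC -0.74, adjusted p = 0.00515) among them. Of 7 genes known from pericentral endothelium 3 (42.9%) passed, each lower, with *Fabp4*, a fatty acid carrier of capillaries (log2 FC -2.32, adjusted p = 0.00134), and *Thbd*, the anticoagulant thrombomodulin (log2 FC -1.65, adjusted p = 0.00846), among them. Of 8 periportal endothelial genes 1 was lower (12.5%). Of 4 tested lymphatic endothelial markers 2 were lower (50%, beside 15.9% of all tested genes called lower), *Prox1* and *Flt4*. *Prox1* was at 67.3 to 103 CPM in the ALKO-con livers, and whether its RNA came from lymphatic endothelium was not tested. Some genes stand in more than 1 list, and *Flt4* is also counted among the further sinusoidal genes and in the VEGF axis below. Of 10 tested capillary and large vessel genes 3 (30%) passed, each lower, with the basement membrane collagen *Col4a1* (log2 FC -1.52, adjusted p = 0.00236) among them.

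Some of these genes also differed between the genotypes on the control diet, where 29.6% of all tested genes were called. Of 25 pan-endothelial genes 4 were higher and 1 lower in ALKO-con than in WT-con (20%), and of 25 further sinusoidal genes 2 were higher and 1 lower (12%). *Fabp4* (log2 FC 2.38, adjusted p = 0.00108), *Thbd* (log2 FC 2.21, adjusted p = 0.00291), *Col4a1* (log2 FC 1.62, adjusted p = 0.00127) and *Nos3* (log2 FC 1.08, adjusted p = 0.00511) were each higher in ALKO-con, while the sinusoidal factor *Nr2f2* (log2 FC -0.97, adjusted p = 0.00285) and the lipid receptor gene *S1pr1* (log2 FC -0.82, adjusted p = 0.00742) were lower. Both comparisons share the ALKO-con livers, so their values are not independent. The interaction passed for *Fabp4* (log2 FC -2.45), *Thbd* (log2 FC -2.49), *Col4a1* (log2 FC -1.67) and *Nos3* (log2 FC -1.59), with adjusted p of 0.000867, 0.00437, 0.00104 and 0.00467. Without WT-EtOH liver 2 these were -2.27, -2.08, -1.50 and -1.28, with adjusted p of 0.00251, 0.00905, 0.00299 and 0.00652.

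The signalling partners of *Kdr* and *Eng* were mixed. Of 11 tested VEGF axis genes 6 (54.5%, beside 30.8% of all tested genes) passed between the diets in livers labelled *Ahr* HKO, 4 lower and 2 higher. The co-receptor *Nrp1* fell (log2 FC -1.51, adjusted p = 0.00134), and the ligands *Vegfd* (log2 FC 2.3, adjusted p = 0.00391) and *Vegfb* (log2 FC 1.27, adjusted p = 0.00664) rose. *Nrp1* was higher in ALKO-con than in WT-con (log2 FC 1.08, adjusted p = 0.00105), and its interaction passed (log2 FC -1.04, adjusted p = 0.00369, and without WT-EtOH liver 2 -0.92, adjusted p = 0.0105). Of 21 endoglin and BMP axis genes 9 (42.9%) passed, each lower (median -0.40), with the ligand *Tgfb1* (log2 FC -0.91, adjusted p = 0.00284) and the receptor *Tgfbr2* (log2 FC -0.70, adjusted p = 0.00294) among them. The interaction for *Tgfb1* passed (log2 FC -1.33, adjusted p = 0.00267, and without WT-EtOH liver 2 -1.09, adjusted p = 0.00286). Of 17 tested scavenger and endocytic receptors 5 were lower and 3 higher (47.1% in all), and those higher included the scavenger receptors *Colec12* (log2 FC 1.45, adjusted p = 0.00178) and *Scarf1* (log2 FC 1.10, adjusted p = 0.00595), while both stabilins were lower. On the control diet *Colec12* (log2 FC -1.40, adjusted p = 0.000896) and *Scarf1* (log2 FC -0.82, adjusted p = 0.00306) were lower in livers labelled *Ahr* HKO. Of 18 tested Fc receptors and C-type lectins 8 were lower and 2 higher (55.6% in all, median -1.14), and this list holds macrophage receptors too. In WT, *Cd36*, a fatty acid transporter of endothelium, macrophages and hepatocytes, was the gene of the further sinusoidal list that passed (log2 FC 1.94, adjusted p = 0.00305), as it did without WT-EtOH liver 2 (log2 FC 1.72, adjusted p = 0.00385).

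**Figure D4:**
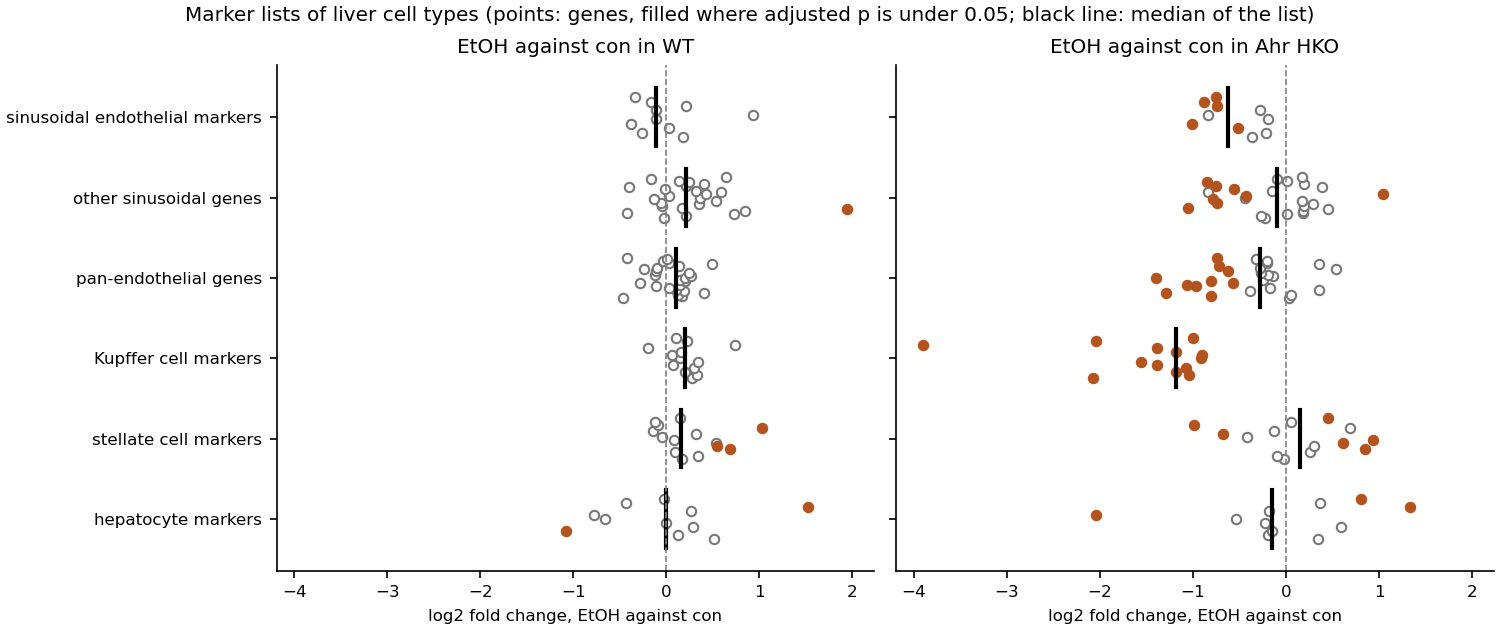
log2 fold change of EtOH against con (x axis) for the genes of 6 marker lists (y axis), in WT (left) and in livers labelled *Ahr* HKO (right); points are genes, filled where they passed, and black lines are list medians. In livers labelled *Ahr* HKO the median is -0.63 for the sinusoidal endothelial markers, -1.19 for the Kupffer cell markers and 0.16 for the stellate cell markers.

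On EtOH in livers labelled *Ahr* HKO, markers of Kupffer cells, neutrophils and monocytes were lower together with the endothelial ones. Those of stellate cells, hepatocytes, cholangiocytes, red cells and platelets had estimates of both signs. Of all tested genes, 30.8% were called there in either direction and 15.9% were called lower. In livers labelled *Ahr* HKO, 13 of 13 Kupffer cell markers passed and were lower on EtOH (median -1.19), with *Cd163* (log2 FC -1.38, adjusted p = 0.00285) and *Timd4* (log2 FC -2.04, adjusted p = 0.00714), both receptors of resident macrophages, among them. Summed over the list they held 1311, 873.8 and 499.9 CPM in ALKO-con livers 1, 2 and 3 and 318, 347 and 394 CPM in the ALKO-EtOH livers, and no marker of the list was at 0. Across the ALKO-con livers the Kupffer sum thus ranged 2.62-fold, while the sum over the 10 endothelial markers was 492, 481 and 468 CPM in the same livers. On con, 1 of the 13 Kupffer cell markers was called between the genotypes (7.69%, beside 29.6% of all tested genes). It was *Cd163*, higher in livers labelled *Ahr* HKO (log2 FC 1.03, adjusted p = 0.00516). All 13 estimates on con were positive (median 0.46). Of 7 tested neutrophil and monocyte markers 5 were lower on EtOH in livers labelled *Ahr* HKO (71.4%, median -1.47). In WT, 2 of the 7 were higher on EtOH (28.6%, beside 9.47% of all tested genes), with a median of 0.97. On con, 4 were higher in ALKO-con than in WT-con (57.1%, beside 29.6% of all tested genes). The interaction passed for 7 of 7, beside 22.3% of all tested genes. Without WT-EtOH liver 2, 0 passed in WT (median 0.57) and 5 passed the interaction. Of 14 stellate cell markers in livers labelled *Ahr* HKO, 4 were higher and 2 lower on EtOH (42.9%, median 0.16), with the lectin *Colec11* (log2 FC 0.85, adjusted p = 0.00294) among those higher. Of 11 hepatocyte markers 2 were higher and 1 lower (27.3%), and of 6 tested cholangiocyte markers 1 was lower (16.7%), both shares below that of all tested genes. None of 10 lymphocyte markers (median -0.58) or 7 tested erythroid and platelet markers (median 0.42) passed the edgeR test, with 0 and 1 at an unadjusted p under 0.05, and these lists were not counted by another tool. The lymphocyte estimates were negative for 9 of 10. Their levels were low, with sums of 2.90 to 4.82 CPM in ALKO-con and 2.03 to 2.92 CPM in ALKO-EtOH. In WT the Kupffer sum was 651, 536 and 698 CPM in the con livers and 508, 1181 and 489 CPM in EtOH livers 1, 2 and 3, so that the Kupffer and the endothelial sums were both highest in liver 2. The part of these cell types in the results for the endothelial markers was not tested.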

How the data were processed

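Whole-liver poly(A) RNA of 12 mice was sequenced from stranded libraries. The authors deposited 1 table of mm10 genes with raw read counts, FPKM and TPM per liver. Per the labels, the processing notes name FastQC 0.11.7, Trimmomatic 0.38, HISAT2 2.1.0, Bowtie2 2.3.4.1 and StringTie 1.3.4d, without the role of each. The deposited FPKM were used for levels between genes and, as log2(FPKM + 1), in limma. The deposited TPM were only checked. Groups were taken from the labels. Nothing pairs livers across groups. The p-values set a difference between groups against the variation between livers within groups (3 a group), estimated with information shared over genes.

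Counts were filtered by filterByExpr over the 4 groups and tested with the quasi-likelihood test of edgeR 4.0.16 (R 4.3.3, TMM factors), on the 6 libraries of each pair of groups and on all 12 for the interaction. P-values were adjusted by Benjamini-Hochberg over 14038 genes, and a gene was called at an adjusted p under 0.05. Intervals are 95% and use the moderated degrees of freedom. Alternatives used DESeq2 1.42.0, limma 3.58.1, other factors and filters, and leaving out each liver. The scripts were tested on simulated data. Genes outside the 10 were named by a rule, at most 6 called genes of a list by smallest adjusted p over the comparisons, with the exception stated, and the genes most like the 10 by Pearson r. The members and lists were chosen with earlier results of these data known.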

Additional observations from a re-analysis of the deposited data

Results flagged for a closer look

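The diet difference of *Pecam1* differed between the genotypes as labelled by the interaction test (edgeR quasi-likelihood test over 12 livers, log2 FC -0.93, adjusted p = 0.0499). The value sits at the threshold, and without WT-EtOH liver 2, which had the highest *Pecam1* of its group, it was -0.58 with an adjusted p of 0.0895. The call held in 2 of 12 fits that left out a liver and in 3 of 9 other alternatives.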

How the results depend on the processing

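The count of 5 lower markers for EtOH in livers labelled *Ahr* HKO became 3 in a single fit of all 12 libraries, 4 with a 1.5-fold minimum, 6 in DESeq2 (with *Clec4g*) and 7 in each limma fit (with *Clec4g* and *Oit3*), and 4 to 6 when a liver was left out. For EtOH in WT, thresholds taken from the study's legends (adjusted p under 0.25 and a 1.5-fold change) called 1, *Lyve1*, against 0, and leaving out a liver gave 0 to 2. On con, the 2 calls between genotypes became 1 without a low count filter, in the fit of all 12 libraries, with a 1.5-fold minimum and with the legends' thresholds, and 0 to 4 when a liver was left out. The 1 interaction call became 0 with upper-quartile or RLE factors, without a filter and in limma with quantile normalization at either pseudocount (1 or 0.1), 2 in DESeq2 and in limma without quantile normalization, and 0 to 2 when a liver was left out. On EtOH the count between genotypes was 0 in every alternative run. The first fit used TMM factors over all 12 libraries, and the main fit was switched to factors over the 6 libraries of each comparison after values were seen. Kept as an added alternative, the first factors left these counts at 0, 5, 2 and 0. The cause of these changes was not tested.

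The replicate numbers did not pair the livers: same-numbered livers correlated between -0.0884 and 0.178. With the replicate block the count on con was 1, the interaction count 0 and the others were as above, and 517 against 1329 genes were called for EtOH in WT and 245 against 155 between genotypes on EtOH.

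Estimates near 0 changed sign. For EtOH in WT, *Fcgr2b* was -0.00046 with upper-quartile factors, -0.0651 with the block, and -0.12 and -0.13 in limma at pseudocounts 1 and 0.1. On con, *Oit3* was -0.0717 with upper-quartile and -0.0010 with RLE factors, -0.00088 in DESeq2, -0.0038 with a minimum of 10 counts, -0.0039 in the fit of all 12 libraries and with their factors, and -0.0433 and -0.0456 in limma. The interaction of *Kdr* was 0.0070 with the block and 0.0439 and 0.0545 in limma, and that of *Eng* -0.14 in limma without quantile normalization. Leaving out a liver gave, in WT, *Stab1* -0.72 to 0.0352, *Clec4g* -0.16 to 0.31, *Kdr* -0.54 to 0.14, *Pecam1* -0.14 to 0.34, *Fcgr2b* -0.43 to 0.21 and *Oit3* -0.67 to 0.11. On con it gave *Fcgr2b* -0.18 to 0.0136 and *Oit3* -0.0668 to 0.12. On EtOH it gave *Stab1* -0.60 to 0.19, *Clec4g* -0.51 to 0.00036, *Kdr* -0.63 to 0.0625, *Pecam1* -0.46 to 0.0671 and *Oit3* -0.41 to 0.42, and for the interaction *Stab2* -0.60 to 0.10, *Kdr* -0.32 to 0.36, *Oit3* -0.40 to 0.41 and *Eng* -0.0836 to 0.30.

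Over all genes, DESeq2 called 2335 for EtOH in WT and 1512 between genotypes on EtOH, where the fit of all 12 libraries called 575, limma 92, and limma without quantile normalization 382 (71 higher, 311 lower). Leaving out a liver gave 367 (WT-con 2) to 1026 calls for EtOH in WT, against 1329, 2588 (ALKO-EtOH 3) to 3792 for EtOH in livers labelled *Ahr* HKO, against 4322, 2630 (WT-con 2) to 3748 on con, against 4161, and 7 (ALKO-EtOH 3) to 189 on EtOH, against 155. With 3 livers a group, a difference that was not called is not shown to be absent, and the printed intervals give the uncertainty of each estimate.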
